A study of Mus musculus with 3 samples.

Results

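The genes described here are 9 genes of the Hedgehog pathway, taken by symbol from the 39179 genes of the deposited table. They are the ligands Shh, Ihh and Dhh, the receptor Ptch1, the signal transducer Smo, the transcription factors Gli1, Gli2 and Gli3, and the target gene Hhip. All were found, and 7 of the 9 reached a value of 20 in at least 1 library, with Shh and Dhh below it. RNA came from mouse embryonic stem cells with a Contactin2:eGFP reporter and a lentiviral aMHC:mCherry reporter, whose promoter comes from the heart muscle gene Myh6. Cells were differentiated, given sodium nitroprusside, a nitric oxide donor, at day 4 and separated by fluorescence-activated sorting after 25 days. NEG cells lacked both reporters, MHC cells were positive for mCherry, and GFP cells were positive for eGFP with dim mCherry. All 3 populations were treated and came from the same reporter line, and each had 1 library, so no difference has a replicate check and none was tested. The labels give no untreated cells, and they do not say whether cultures were pooled. The gates rest on reporter activity, which need not match a cell type.

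Hedgehog ligands are secreted proteins that bind the receptor Patched. Binding relieves the inhibition of Smoothened, which then acts at the primary cilium to turn Gli proteins from repressors into activators. Ptch1, Gli1 and Hhip are themselves switched on by the pathway, so their transcripts are commonly read as its output. In the embryo, Sonic hedgehog from the foregut endoderm acts on outflow tract precursors of the heart, Indian hedgehog comes from chondrocytes in growing bone and from endoderm, and Desert hedgehog is known from Schwann and Sertoli cells.

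Promoters are shown for 4 members whose values, given further on, were lower in GFP than in both other populations. They were chosen after the values were seen. RefSeq windows (GRCm38.p6) were matched for 7 of the 9 members: Ihh, Dhh, Ptch1, Smo, Gli2, Gli3 and Hhip. The 250 bases before the annotated start are printed 5′ to 3′ on the gene's strand for Ihh (chr1:74951673-74951922, minus strand), Ptch1 (chr13:63565736-63565985, minus strand), Gli2 (chr1:119053620-119053869, minus strand) and Hhip (chr8:80058009-80058258, minus strand). Capitals mark CCACCC, the core of the Gli binding consensus GACCACCCA, or its reverse complement.
Ihh: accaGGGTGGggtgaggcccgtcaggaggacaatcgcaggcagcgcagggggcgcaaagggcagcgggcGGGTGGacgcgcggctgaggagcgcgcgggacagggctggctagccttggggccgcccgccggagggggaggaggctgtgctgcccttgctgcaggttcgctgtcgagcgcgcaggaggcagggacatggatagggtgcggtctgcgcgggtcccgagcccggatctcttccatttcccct
Ptch1: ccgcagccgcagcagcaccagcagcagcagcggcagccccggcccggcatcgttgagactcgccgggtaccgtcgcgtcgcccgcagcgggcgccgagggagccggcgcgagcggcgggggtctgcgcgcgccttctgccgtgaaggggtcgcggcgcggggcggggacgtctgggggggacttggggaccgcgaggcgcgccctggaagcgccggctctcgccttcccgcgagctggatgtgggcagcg
Gli2: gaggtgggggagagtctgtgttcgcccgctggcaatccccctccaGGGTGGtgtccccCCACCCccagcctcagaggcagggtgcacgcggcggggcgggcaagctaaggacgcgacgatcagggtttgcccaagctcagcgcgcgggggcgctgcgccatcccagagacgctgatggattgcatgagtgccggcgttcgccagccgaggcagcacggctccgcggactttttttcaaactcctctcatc
Hhip: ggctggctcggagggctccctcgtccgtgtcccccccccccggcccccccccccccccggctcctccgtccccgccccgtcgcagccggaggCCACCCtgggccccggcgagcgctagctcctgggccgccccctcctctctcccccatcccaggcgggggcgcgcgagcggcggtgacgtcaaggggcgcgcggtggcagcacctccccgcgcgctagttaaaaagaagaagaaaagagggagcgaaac

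The full consensus was searched on both strands and was in 0 of the 7 windows, against 0.225% of 32851 windows of the same length. The core, which lies within the full consensus, was in 6 of the 7 windows and in 28.1% of all windows. It began 246 and 181 bases before the start in Ihh, 205 and 192 in Gli2 and 158 in Hhip, and no copy was in the Ptch1 window. Smo and Gli3, which were not lower in GFP by the rule used below, had 1 copy each. Dhh, whose values were too low for that rule, also had 1 copy. GC content was 59.6% to 78.4% in the members' windows and had a median of 52.4% over all windows. A match of letters is not a binding site, and the table does not measure binding.

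Recovered reads numbered 47289405 in NEG, 52826956 in MHC and 52109065 in GFP. Values are size-factor-normalised read counts, and 1 read was worth 1.13, 1.01 and 0.914 in these libraries. Of the genes behind the reporters, Cntn2 had a value of 204 in NEG, 228 in MHC and 10045 in GFP, and Myh6 3843, 186924 and 4694. The dim mCherry label of GFP thus stood beside a Myh6 level 1.22-fold that of NEG. How reads were counted is not stated in the labels; the table's values were treated as counts over whole gene spans, so a low value may include intronic or overlapping reads. Folds are ratios of the deposited values, and their 95% intervals cover counting error only. In sorted bulk RNA, fewer cells of a type and less RNA per cell cannot be told apart.

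Ihh was the expressed ligand, and it was high in NEG, intermediate in MHC and low in GFP. Ihh (ENSMUSG00000006538, chr1:74945319-74951651, mm10, minus strand, protein-coding) had a value of 3217 in NEG, 994 in MHC and 25.6 in GFP. The GFP value came from 28 reads, against 2848 in NEG and 981 in MHC. GFP was below MHC by 38.8-fold (95% interval 26.7 to 58.7) and below NEG by 126-fold (86.8 to 189.5). MHC in turn was below NEG by 3.24-fold (3.01 to 3.48), so the 3 populations formed a descending series.

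Shh and Dhh were close to the limit of counting in every library. Shh (ENSMUSG00000002633, chr5:28456815-28467101, minus strand, protein-coding) had 1 read in NEG, 1 in MHC and 3 in GFP. The overlapping lincRNA gene Gm26894 had the same 1, 1 and 3 reads and 9530036O11Rik had 88, 50 and 46, so the Shh reads are uncertain, and no fold is given. Dhh (ENSMUSG00000023000, chr15:98893031-98898540, minus strand, protein-coding) had a value of 6.78 in NEG, 17.2 in MHC and 10.1 in GFP. These are 6, 17 and 11 reads, and the interval of the MHC to NEG ratio, 0.956 to 7.87, included equality, as did those of both other pairs. A difference in Dhh was not detectable at this depth.

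**Figure D1:**
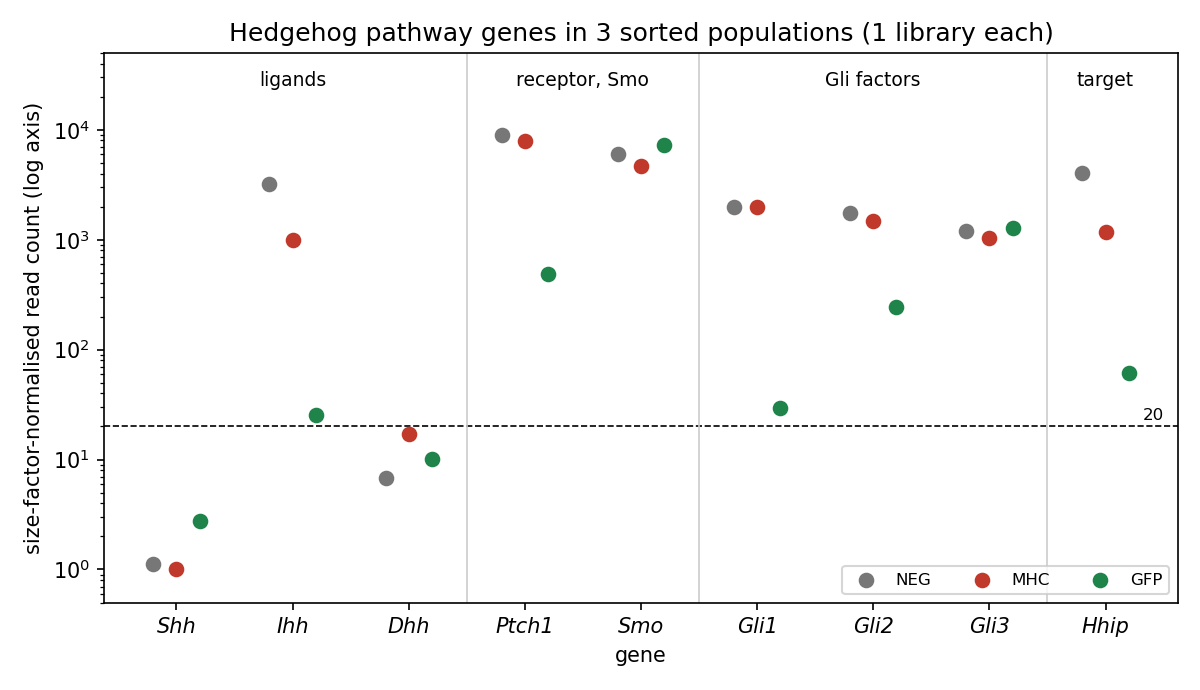
Size-factor-normalised read count (log axis) of each of the 9 Hedgehog genes in NEG, MHC and GFP, 1 point per library; the dashed line is a value of 20. Ihh, Ptch1, Gli1, Gli2 and Hhip have their GFP point far below both others, Smo and Gli3 lie close together, and Shh and Dhh lie under the line.

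The receptor gene was lower in GFP, while the gene of the transducer downstream of it was not. Ptch1 (ENSMUSG00000021466, chr13:63511533-63565520, minus strand, protein-coding), which holds Smoothened inactive without ligand and is also a target, had a value of 8921 in NEG, 7878 in MHC and 492 in GFP. The GFP level was below that of MHC by 16.0-fold (95% interval 14.7 to 17.5) and below that of NEG by 18.1-fold (16.6 to 19.8). NEG and MHC were within 1.13-fold of each other. Smo (ENSMUSG00000001761, chr6:29735694-29761365, plus strand, protein-coding), the membrane protein that passes the signal on, had a value of 6030.0 in NEG, 4723 in MHC and 7288 in GFP. Smo was highest in GFP, 1.54-fold (1.49 to 1.60) above MHC and 1.21-fold (1.17 to 1.25) above NEG, within 2-fold in every pair.

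The Gli factors differed from each other. Gli1 (ENSMUSG00000025407, chr10:127329889-127341589, minus strand, protein-coding), an activator whose own transcription depends on the pathway, had a value of 1985 in NEG, 1965 in MHC and 29.3 in GFP. For Gli1, MHC exceeded GFP by 67.2-fold (95% interval 47.4 to 98.5) and NEG exceeded GFP by 67.9-fold (47.9 to 99.5). Its levels in MHC and NEG had a ratio of 0.990 (0.928 to 1.06). Arhgap9, which overlaps Gli1 in the table, had 21 reads in GFP beside the 32 of Gli1. The table does not say how many of these are shared, so the GFP value of Gli1 may be an upper value.

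Gli2 (ENSMUSG00000048402, chr1:118834132-119053619, minus strand, protein-coding), the main activator upstream of Gli1, had a value of 1743 in NEG, 1484 in MHC and 242 in GFP. Here MHC exceeded GFP by 6.13-fold (95% interval 5.37 to 7.01) and NEG by 7.20-fold (6.31 to 8.23), the smallest gap of the 5 genes that were lower in GFP. Gli3 (ENSMUSG00000021318, chr13:15463235-15730026, plus strand, protein-coding), which acts mostly as the repressor when no ligand is present, had a value of 1203 in NEG, 1028 in MHC and 1266 in GFP. Its 3 values lay close together, and the largest difference was 1.23-fold (1.14 to 1.34), GFP over MHC. GFP cells thus had Gli3 transcripts at the level of the other populations and few of Gli1, and RNA does not show which form of the Gli3 protein was present.

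Hhip, whose membrane protein binds and sequesters the ligands, followed the order of Ihh. Hhip (ENSMUSG00000064325, chr8:79966115-80058006, minus strand, protein-coding) had a value of 4039.6 in NEG, 1172 in MHC and 61.2 in GFP. The Hhip level in GFP lay 19.1-fold (95% interval 15.0 to 24.9) under MHC and 66.0-fold (51.8 to 85.3) under NEG. As for Ihh, MHC was below NEG, here by 3.45-fold (3.22 to 3.69). Ptch1 and Gli1 did not show that step between NEG and MHC.

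A gene counted as higher or lower if (value + 1) differed 2-fold or more and the higher of the 2 libraries reached 20. This describes size and tests nothing. GFP against MHC sets eGFP-positive cells with dim mCherry against mCherry-positive cells. Of the 9 members, 7 could be counted in each pair, and here 5 were lower in GFP and 0 higher. Over all 20879 genes that could be counted, 16.4% were lower and 15.6% higher. GFP against NEG sets the GFP cells against cells with neither reporter: again 5 were lower and 0 higher, beside 15.0% lower and 14.1% higher of 20814 genes. These 2 comparisons share the GFP library, so the second does not repeat the first. MHC against NEG sets the heart muscle reporter against its absence: 2 members, Ihh and Hhip, were lower in MHC and 0 higher, beside 5.21% lower and 5.35% higher of 20572 genes.

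Some members were near the low end of all genes. Between GFP and MHC, 52 of 20879 genes had a lower log2(value + 1) ratio than Gli1, 106 than Ihh, 291 than Hhip, 352 than Ptch1 and 1048 than Gli2. Between GFP and NEG, 24 of 20814 genes had a lower ratio than Ihh, 77 than Gli1 and 79 than Hhip. Smo and Gli3 were at ordinary places in the GFP to MHC order, with 5191 and 7760 genes above them.

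**Figure D2:**
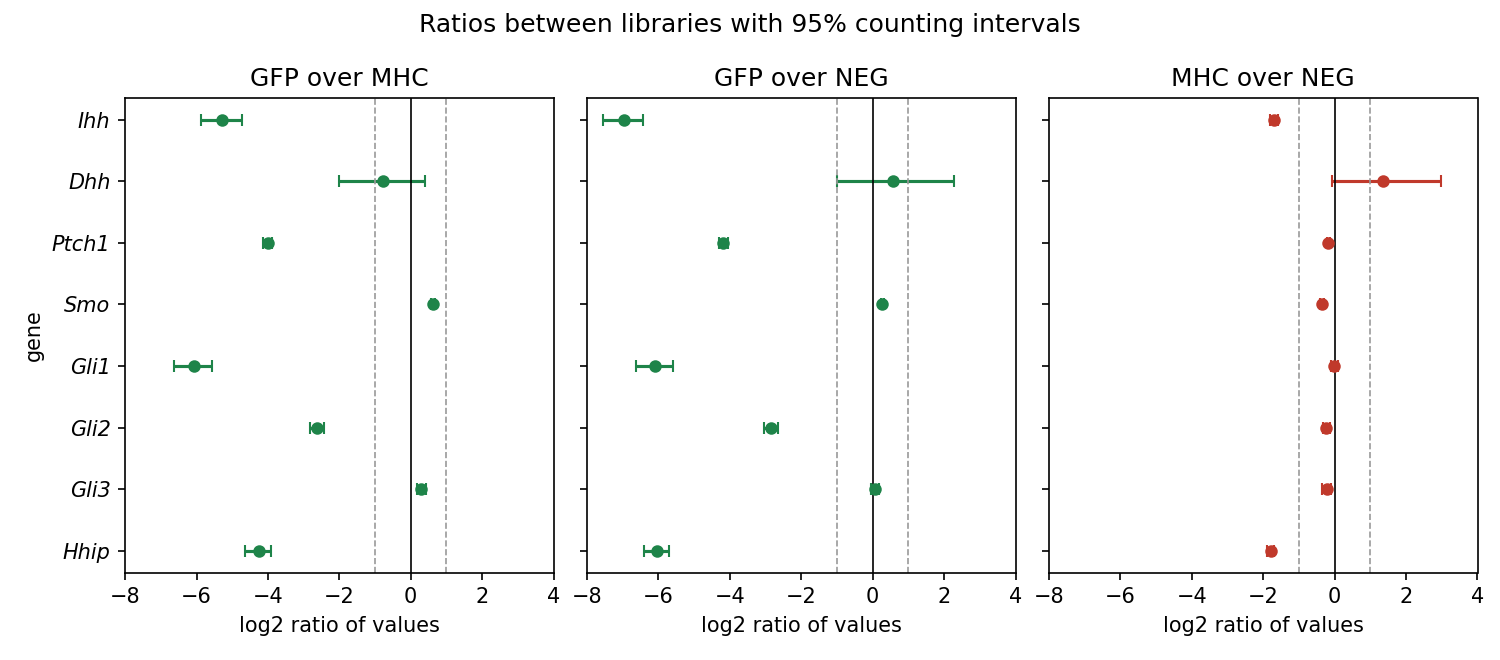
Log2 ratio of the deposited values for 8 Hedgehog genes (Shh, at 1 to 3 reads, is left out) in GFP over MHC, GFP over NEG and MHC over NEG; bars are 95% counting intervals, dashed lines 2-fold. Ihh, Ptch1, Gli1, Gli2 and Hhip lie left of the line in both GFP panels, and Ihh and Hhip also in the panel of MHC over NEG.

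Levels of different genes were compared per kilobase of merged exons (GENCODE M21). In NEG, Smo at 1073 and Ihh at 1056 per kb led, with a ratio of 1.02 (95% interval 0.971 to 1.06), followed by Ptch1 at 629, Hhip at 445, Gli1 at 397, Gli2 at 254 and Gli3 at 125. In MHC, the order was Smo at 840.3, Ptch1 at 555, Gli1 at 393, Ihh at 326, Gli2 at 216, Hhip at 129 and Gli3 at 107 per kb, and neighbours differed beyond counting error. In GFP, Smo led at 1297 per kb, 9.82-fold (9.27 to 10.4) above Gli3 at 132. Gli2 at 35.3 and Ptch1 at 34.7 did not differ beyond counting error. Nor did Ihh at 8.40 from Hhip at 6.75, or Hhip from Gli1 at 5.86. Gli1 thus stood above Gli3 in NEG and MHC and below it in GFP. Per kilobase of the whole gene span, Ihh led in NEG at 508 and Smo followed at 235. By span in GFP, Ptch1 at 9.11 stood above Gli2 at 1.10, and Ihh at 4.04 above Hhip at 0.666. By span in MHC, the ratio of Gli1 to Ihh was 1.07 (0.991 to 1.16), which included equality. The order of these genes thus depends on the length used.

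Genes that act with the members were taken from 5 lists, with 75 genes beside the members (1 gene is on 2 of the lists). Between GFP and MHC, 15 were lower, 15 higher and 40 within 2-fold of the 70 that could be counted, with a median log2 ratio of 0.07 against 0.01 for all genes. Between GFP and NEG, 16 were lower, 13 higher and 41 within 2-fold (median 0.19, all genes 0.02). Between MHC and NEG, 2 were lower, 2 higher and 66 within 2-fold (median −0.05, all genes −0.01). Beside the shares of all genes given above, these counts go both ways and do not set the wider pathway apart.

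For ligand release, 2 of 7 genes were lower and 2 higher in GFP than in MHC. Scube1, of a family of secreted proteins that help release lipid-bound ligand, had a value of 4750.2 in NEG, 1629 in MHC and 218 in GFP, and MHC exceeded GFP by 7.49-fold (95% interval 6.53 to 8.62). Its order over the populations was that of Ihh and Hhip. Scube2 was 2.48-fold lower, and Scube3 and Disp2 were 2.22-fold and 4.06-fold higher in GFP. Disp1, the transporter that exports ligand, and Hhat, which attaches its palmitate, were within 2-fold.

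For receptors and co-receptors, 4 of 8 genes were lower and 2 higher in GFP than in MHC, and 5 were lower and 3 higher than in NEG. Of the co-receptors that aid ligand binding, Boc was 2.82-fold and Gas1 2.02-fold lower in GFP than in MHC, while Cdon had a value of 5189.6 in NEG, 5443 in MHC and 10472 in GFP. Lrp2, or megalin, an endocytic receptor that binds Sonic hedgehog, had a value of 168 in NEG, 157 in MHC and 10121 in GFP. It was 64.5-fold (55.0 to 76.0) higher in GFP than in MHC, the largest difference among the 75 genes in that pair. The glypican gene Gpc3, whose product competes with Patched for ligand, had a value of 27528 in NEG, 32537 in MHC and 127504 in GFP, whereas Gpc6 was 2.73-fold lower in GFP than in MHC.

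Most intracellular regulators and cilium genes were within 2-fold between GFP and MHC. So were most of all genes counted, with 16.4% lower and 15.6% higher in GFP. Of 21 regulators, 17 were within 2-fold between GFP and MHC, among them Sufu, which restrains Gli proteins, with a value of 1227 in NEG, 1235 in MHC and 1639 in GFP. Kif7, the ciliary kinesin of the pathway, had a value of 930 in NEG, 644 in MHC and 632 in GFP. Stk36 was 4.07-fold, Arrb2 2.69-fold and Numb 2.09-fold higher, and the kinase gene Dyrk2 2.42-fold lower in GFP than in MHC. All 15 genes of ciliary transport were within 2-fold between GFP and NEG, beside 15.0% lower and 14.1% higher of all genes. Between GFP and MHC, 12 were within 2-fold and Kif3b, Bbs7 and Rpgrip1l were 2.09-fold, 2.12-fold and 2.40-fold higher in GFP.

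**Figure D3:**
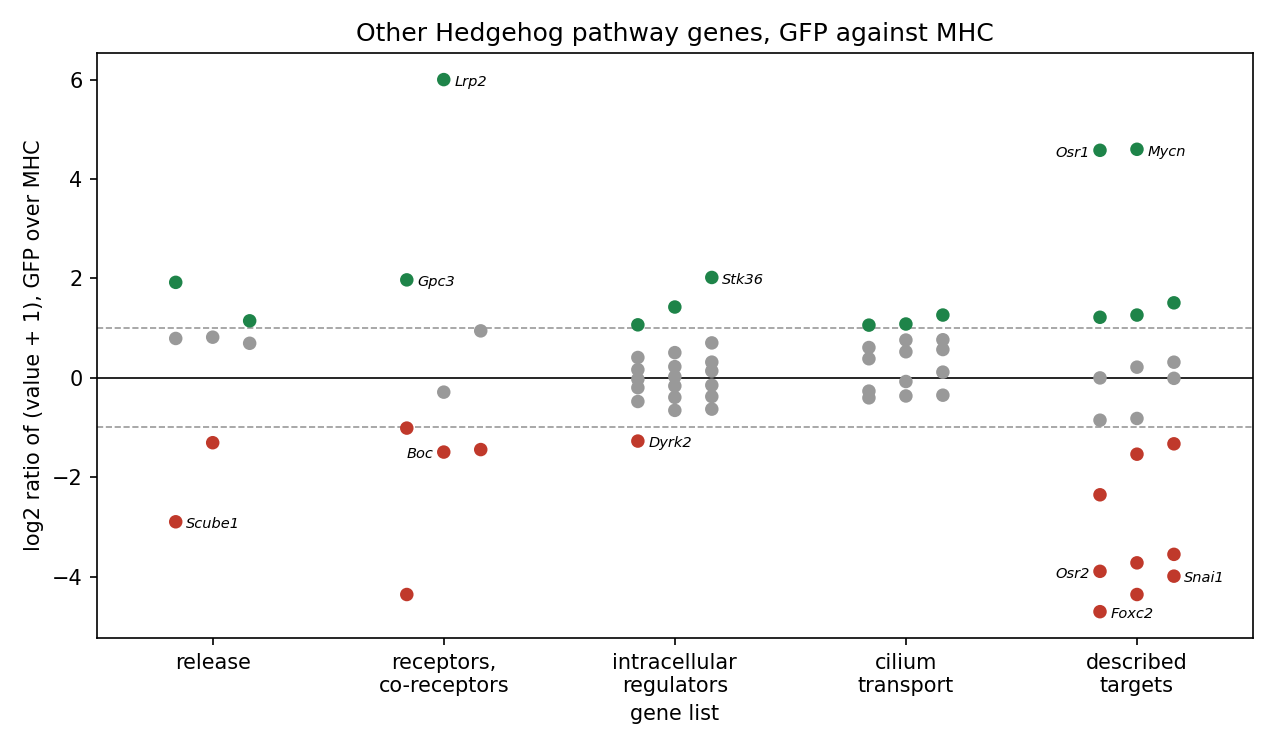
Log2 ratio of (value + 1), GFP over MHC, for genes of the 5 pathway lists with a value of 20 or more in either library; green points are 2-fold or more higher in GFP, red lower, grey within 2-fold. Lrp2 lies highest among the receptors, and the described targets spread both ways, from Mycn and Osr1 to Foxc2.

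Genes described as Hedgehog or Gli targets in other tissues did not move as one. Of 25, 20 could be counted between GFP and MHC, 9 lower and 5 higher, beside 16.4% lower and 15.6% higher of all genes. The median log2 ratio of the list was −0.84, against 0.01 for all genes. Snai1, a factor of epithelial to mesenchymal transition, had a value of 2093 in NEG, 3595 in MHC and 225 in GFP. Tbx2 was 2.92-fold and Osr2, from 3 reads in GFP, 19.9-fold lower in GFP than in MHC. The forkhead genes Foxf1 and Foxc2 were 5.17-fold and 27.2-fold lower, and an overlapping gene makes both uncertain. In the other direction, Osr1 had a value of 1209 in NEG, 710.0 in MHC and 16987 in GFP, and Mycn 32.8, 30.4 and 759.6. Bmp4 was 2.33-fold higher in GFP than in MHC, and Hand2, Sfrp1 and Bcl2 were within 2-fold in all 3 pairs.

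Markers of cartilage and bone were lower in GFP, as Ihh was. All 10 markers of that list were lower in GFP in both pairs, with 0 of the 10 at 0 in any library. Their summed value, most of it from Ibsp and Col2a1, was 1509678 in NEG, 490366 in MHC and 11744 in GFP. Col2a1, the collagen of cartilage, had a value of 574523 in NEG, 94203 in MHC and 6314 in GFP. Pth1r, the receptor that works in a loop with Ihh in growth cartilage, had a value of 45439 in NEG, 22038 in MHC and 328 in GFP. Between MHC and NEG, 5 of the 10 were lower in MHC: Col2a1, Acan, Col10a1, Pth1r and Ibsp. Sox9, Runx2, Sp7, Bglap and Alpl were within 2-fold in that pair, as were Ptch1, Gli1 and Gli2. An overlapping gene makes Col10a1 uncertain. The part of these cells in the levels of the Hedgehog genes was not tested.

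**Figure D4:**
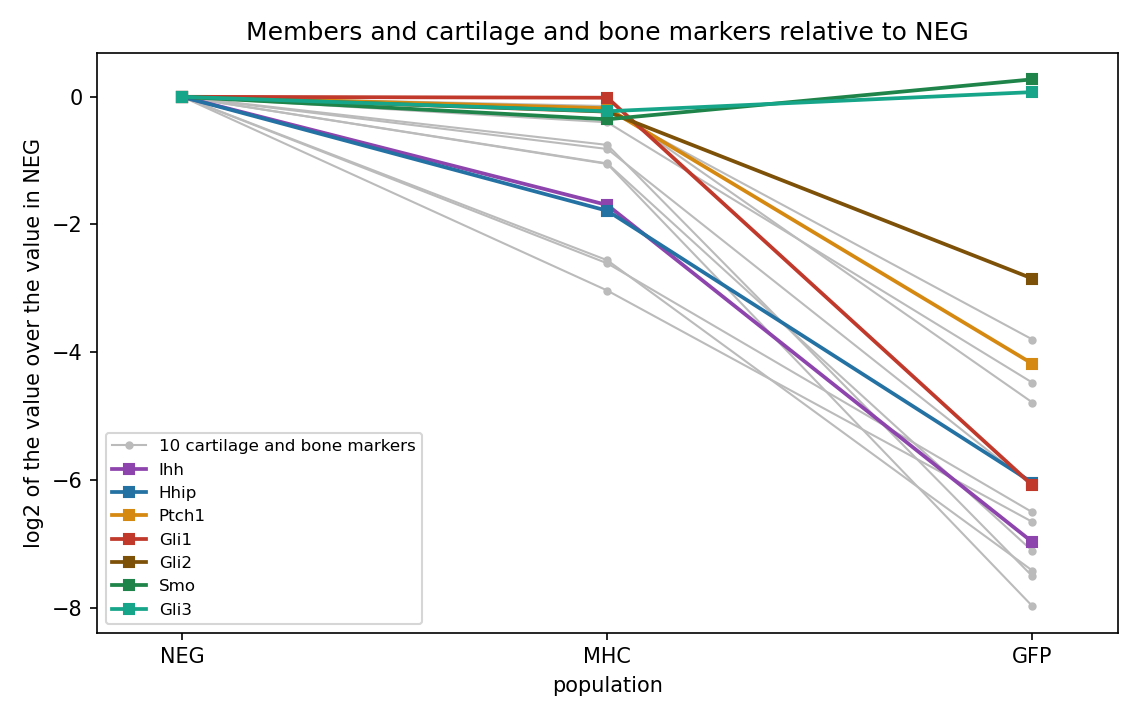
Log2 of each gene's value over its value in NEG, for 7 Hedgehog genes (coloured squares) and the 10 cartilage and bone markers (grey). Ihh and Hhip step down from NEG to MHC and again to GFP, Ptch1, Gli1 and Gli2 step down at GFP, and Smo and Gli3 stay near 0.

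Other marker lists also differed with the members. All 8 epicardial and mesothelial markers were higher in GFP in both pairs, with a summed value of 5769 in NEG, 5973 in MHC and 159003 in GFP. Fibroblast and matrix markers went both ways: of 8, 6 were lower and 2 higher in GFP than in MHC, and 5 were lower and 2 higher than in NEG. The 2 higher ones were Pdgfra, with a value of 9525 in NEG, 11080.2 in MHC and 35383 in GFP, and Dcn, with 62072, 67849 and 144191. The list's summed value, most of it from the collagen genes Col1a1 and Col1a2, was 5273904 in NEG, 5252580.1 in MHC and 1329034 in GFP. Of 9 heart muscle markers, all were higher in MHC than in NEG and 8 were lower in GFP than in MHC, while 3 were higher and 1 lower in GFP than in NEG. The sums were 8529 in NEG, 237868 in MHC and 12391 in GFP. Myh6, whose promoter drives the mCherry reporter used for sorting, is on this list and gave 186924 of the MHC sum. None of these markers was at 0 in any library, and their part in the Hedgehog gene levels was not tested.

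The protein-coding genes whose pattern over the 3 libraries was most like that of a member were found by the distance of centred log2(value + 1), among 12878 genes with a mean of 100 or more. The 3 points fix a pattern only loosely, and likeness says nothing of shared function. Closest to Ihh was Col11a2, a cartilage collagen, with a value of 142417 in NEG, 41417 in MHC and 1132 in GFP (distance 0.0628), followed by Panx3 and Wscd2. Closest to Hhip were Lpar3 (distance 0.0932), Tmem119 and Rgs5, and closest to Gli1 were Edil3 (0.125), Rasl12 and Tmie. Among the members, Hhip was at a distance of 0.773 from Ihh, Gli1 at 1.19 and Ptch1 at 1.94, while Smo was at 5.41. Of the genes compared, 38 were closer to Ihh than Hhip was, 77 than Gli1, 195 than Ptch1 and 8837 than Smo.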

How the data were processed

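Per the labels' protocols, RNA from sorted cells was made into TruSeq libraries and sequenced as single reads of 50 bases. The submitters' processing notes name DESeq2 1.2.10, STAR 2.3.0e, bedtools 2.17.0 and FastQC 0.11.2 with mm10, and their roles were not given in the sources used here. Each deposited signal value, treated here as reads over a size factor, belongs to 1 gene in 1 library. Divided by the smallest value above 0, 100% of values per library came out whole within 0.01. For 981 nested genes of at least 300 reads, the gene whose intron holds them had as many reads or more in 100%, so reads were treated as counted over gene spans, introns included, and on both strands.

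With 1 library per population, no count model was fitted and 0 genes are called by one. Ratios used log2(value + 1), which understates differences of low genes, and intervals are exact conditional binomial (Clopper-Pearson) in scipy 1.17.1. The intervals treat reads as independent molecules, which no molecular identifier shows. A gene overlapped by one with 25% or more of its reads is called uncertain. The members and lists were chosen with earlier results of these data known. All members are named, and of the 5 pathway and 7 marker lists the text names some that passed the 2-fold rule and a few that did not, the latter chosen after their values were seen. 1 list gene was matched by an older symbol (2700049A03Rik). Some genes of the lists are counted but not reported here by name.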

Additional observations from a re-analysis of the deposited data

How the results depend on the processing

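The counts of members and of the pooled 75 other pathway genes, and each member's ratio, were recomputed with a pseudocount of 10, scaled to summed reads, and scaled to the upper quartile. These counts were also recomputed without a filter on low values, with a value of 100 or more, and without overlapped genes. None of the 153 recomputed values reversed a member that differed 2-fold, and the counts of members lower (5) and higher (0) in GFP were the same under each setting in both pairs. Without a filter, 1 member (Dhh) was higher in MHC than in NEG. In that pair, the other pathway genes lower in MHC numbered 4 without a filter, and those higher numbered 1 at a pseudocount of 10. Between GFP and MHC, the other pathway genes lower in GFP ranged from 11 to 18 over the settings, and those higher from 14 to 16. Between GFP and NEG, those lower in GFP ranged from 13 to 20 and those higher from 10 to 14. Scaling to summed reads raised the median log2 ratio of all genes by 0.167 in GFP over MHC and 0.165 in GFP over NEG. By more than counting error, 7 of 81 member ratios moved, those of Ptch1, Smo and Gli3 with GFP. Over these settings, the GFP to MHC log2 ratio ranged from −6.08 to −5.65 for Gli1, −5.28 to −4.82 for Ihh, −4.06 to −3.83 for Ptch1, −4.29 to −4.05 for Hhip, −2.67 to −2.44 for Gli2, 0.57 to 0.79 for Smo and 0.24 to 0.47 for Gli3. No paired analysis was possible because each population has 1 library. Depth limits Shh, Dhh and the GFP values of Ihh and Gli1, at 32 reads or fewer. The counts of the separate pathway and marker lists were not recomputed.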

Other observations

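Markers were also listed for tissues known to make the ligands. Of 8 endoderm, notochord and floor plate markers, Foxa2, a factor of endoderm and floor plate, had a value of 150.2 in NEG, 53.7 in MHC and 3.66 in GFP. Nkx6-1 had 13.6, 24.3 and 0.914, and the other 6 were at 6.40 or less in every library. At 0 reads were 2 of the 8 in NEG (Sox17 and Cdx2), 3 in MHC and 1 in GFP. The list's summed value was 174 in NEG, 81.0 in MHC and 20.1 in GFP. Foxa2 made up most of the sum in NEG and MHC. Of 7 Schwann and Sertoli markers, Sox10 had 7 reads in GFP, and 1 of the 4 that reached the level counted, Amh, was lower in GFP than in MHC. The summed value of that list was 3252 in NEG, 4308 in MHC and 3723 in GFP, most of it from Gata4 and Egr2, which other tissues also express.

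Endothelial cells respond to Hedgehog ligands in some vessels. Of 7 endothelial markers, 4 reached the level counted between GFP and MHC, with Tek 2.24-fold higher and Pecam1 and Eng 2.22-fold and 8.62-fold lower in GFP. Kdr, at 195 in NEG, 59.8 in MHC and 84.1 in GFP, was within 2-fold in that pair, and Cdh5, Tie1 and Emcn were below the level counted. The summed value of the 7 was 1577 in NEG, 1986 in MHC and 809.9 in GFP. Most of the NEG and MHC sums came from Eng, at 1060, 1654 and 192 in GFP. An overlapping gene makes Eng uncertain, so the order of the sums is uncertain too. Pthlh, which acts in a feedback loop with Ihh in growth cartilage, had a value of 10.2 in NEG, 17.2 in MHC and 1.83 in GFP, below the level counted.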
